A study of Mus musculus with 12 samples.

Results

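The genes described here are 10 genes of the Wnt pathway, chosen by name out of 34245 genes in a table of RNA sequencing counts. They are the feedback inhibitors and target genes *Axin2*, *Rnf43*, *Znrf3* and *Notum*, the receptors *Fzd5*, *Fzd7*, *Lrp5* and *Lrp6*, β-catenin (*Ctnnb1*) and its DNA-binding partner *Tcf7l2*. They were measured in 12 libraries of sorted mouse small intestinal cells, with 3 libraries each of young ISC, aged ISC, young AE and aged AE. ISC, intestinal stem cells, were the GFP-high cells of crypt suspensions, and AE, adult enterocytes, were villus cells gated as Epcam-high and free of CD31 and CD45. All mice, young and aged, were C57BL/6 males that carried the *Lgr5*-EGFP-IRES-CreERT2 knock-in, with an age of about 8 months in the young and about 27 months in the aged cohort. No treatment is named for any group. The ISC gate rested on the *Lgr5* promoter, whereas the AE gate took any Epcam-high villus cell, a gate that does not exclude secretory cells of the villus.

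Wnt ligands bind a Frizzled receptor together with the co-receptor Lrp5 or Lrp6. This stops a destruction complex, built on axin proteins, from degrading β-catenin, which then acts with TCF factors such as Tcf7l2 on target genes in the nucleus. The pathway is best known in this tissue for maintaining stem cells and proliferation at the crypt base, where its activity also switches on its own inhibitors. Among these, Axin2 adds to the destruction complex, Rnf43 and Znrf3 are membrane ubiquitin ligases that remove Frizzled receptors from the cell surface, and Notum is a secreted enzyme that inactivates Wnt ligands by cleaving off their lipid.

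Libraries are named by the code of their column, Y1, Y2 and Y3 for young mice and O1, O3 and O5 for aged mice, each with an ISC and an AE library. The code and the rest of the sample title name different groups in 8 of 12 titles, so a column was placed by its own name and not joined to a title. The libraries held from 11893817 to 26796461 counts, except for Y3 of AE with 110794420. The stem cell marker *Lgr5* was at 79.7 to 146 CPM (the count scaled to library size, with TMM factors) in the 6 ISC libraries and at 0.550 to 4.72 CPM in the 6 AE libraries. The enterocyte gene *Vil1* was at 416 to 752 CPM in ISC and at 4259 to 6163 CPM in AE. Every column thus carried the markers of the cell type in its name. The 8 enterocyte markers summed to 47806 to 80060 CPM in AE, and still to 2430 to 7171 CPM in young and 1078 to 3651 CPM in aged ISC. The part of enterocyte RNA in the ISC values was not tested. None of these genes checks the age, which rests on the letter of the column name. The 5 goblet cell markers summed to 1283 to 2046 CPM in ISC and to 21839 to 41056 CPM in AE, and the 6 enteroendocrine markers to 222 to 673 CPM in ISC and to 2530 to 6458 CPM in AE. Most of the goblet sum in AE was *Fcgbp*, at 16297 to 29827 CPM. *Muc2*, whose name occurs in several rows of the counts, was left out of the goblet markers. The 6 Paneth cell markers summed to 545 to 1608 CPM in ISC and to 52.0 to 227 CPM in AE. The 8 leukocyte markers summed to at most 29.1 CPM and the 8 stromal and endothelial markers to at most 4.38 CPM in any library. P-values measure the spread between these libraries, and for 1 gene an exact test of 3 against 3 libraries could not go below 0.1. In bulk samples, fewer cells of a type and less RNA per cell cannot be told apart.

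Between AE and ISC, 6 of the 10 genes differed at each age. *Axin2*, *Znrf3*, *Rnf43* and *Fzd7* were lower in AE, by 7.20-fold, 7.30-fold, 3.16-fold and 2.62-fold in young mice. *Tcf7l2* and the barely detected *Notum* were higher in AE. *Fzd5*, *Lrp5*, *Lrp6* and *Ctnnb1* were not called at either age in this fit. These calls were made with edgeR's quasi-likelihood test and Benjamini-Hochberg adjustment over all genes tested (FDR under 0.05). The background was high, since 55.6% of all genes tested were called in young mice (26.7% lower and 28.9% higher in AE) and 64.9% in aged mice (34.2% lower and 30.6% higher). In 7 of the 10 genes at each age, the 3 AE libraries did not overlap the 3 ISC libraries, as in 62.9% of all genes in young and 69.8% in aged mice. The median log2 fold change of the 10 genes was -0.03 in young and -0.02 in aged mice, against 0.15 and -0.13 over all genes tested. The scaling sets where 0 lies here. On library totals without TMM the median of all genes moved to -0.56 in young and -0.91 in aged mice, and 1 member was then called higher and 7 lower in young mice, and 0 higher and 7 lower in aged mice. Over all genes the calls were then 2614 higher and 7382 lower in young and 2776 higher and 8564 lower in aged mice, against 4817 and 4459, and 4857 and 5429, with TMM.

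**Figure D1:**
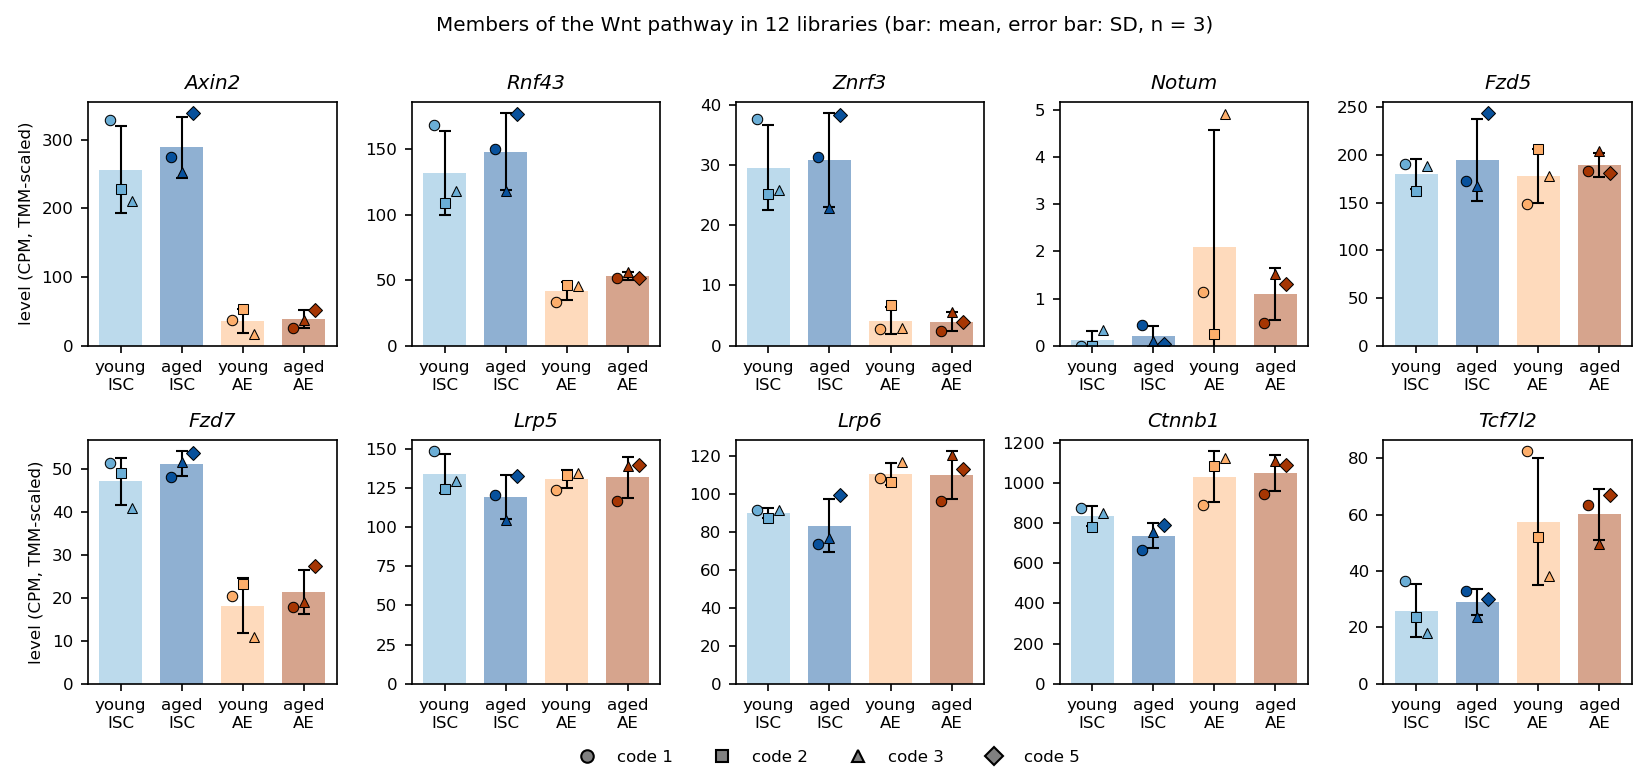
Levels of the 10 genes in CPM (y axis from 0 in each panel) in the 4 groups of 3 libraries. Bars are means, error bars are SD (cut at 0), and symbols mark the library code within an age, so that code 1 is Y1 in young and O1 in aged mice; *Axin2*, *Rnf43*, *Znrf3* and *Fzd7* lie lower in every AE library than in any ISC library, and no gene has a like split by age in ISC.

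Of the members lower in AE, the negative regulators *Axin2* and *Znrf3* had the largest folds. *Axin2* (GRCm38 chromosome 11, 108920349 to 108950783, plus strand) was at 329, 229 and 211 CPM in young ISC and at 275, 252 and 339 CPM in aged ISC. Its AE libraries held 36.8, 53.0 and 17.6 CPM (young) and 26.3, 38.1 and 52.1 CPM (aged). Every AE library thus lay far below every ISC library, and the AE libraries spread the more widely among themselves, with an SD of 49.6% of the mean in young AE against 24.8% in young ISC. The log2FC (log2 fold change, AE relative to ISC) came to -2.85 ± 0.41 (SE, n = 3 libraries per group, edgeR FDR = 0.00106) in young and -2.97 ± 0.25 (edgeR FDR = 3.22e-06) in aged mice.

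*Znrf3* (chromosome 11, 5276324 to 5444847, minus strand) followed the same course at a lower level. It was at 37.7, 25.3 and 25.8 CPM in young ISC and at 31.3, 22.8 and 38.3 CPM in aged ISC, against 2.78, 6.78 and 2.93 CPM in young AE and 2.47, 5.56 and 3.93 CPM in aged AE. The groups did not overlap at either age. The counts behind the AE values were small, from 26 to 82 in 5 libraries and 245 in the deepest. Between cell types the log2FC was -2.87 ± 0.38 (edgeR FDR = 4.78e-04) in young and -3.01 ± 0.31 (edgeR FDR = 1.09e-05) in aged mice.

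*Rnf43* (chromosome 11, 87662722 to 87735539, plus strand), the other Frizzled-removing ligase, was lower in AE by less than *Znrf3*. Its 3 young ISC libraries held 169, 109 and 118 CPM and its aged ISC libraries 149.99, 118 and 177 CPM. The young AE libraries held 33.5, 46.1 and 45.4 CPM and the aged AE libraries 51.7, 56.5 and 51.5 CPM, again with no overlap between cell types. This gave a log2FC of -1.66 ± 0.22 (edgeR FDR = 4.66e-04) in young and -1.55 ± 0.18 (edgeR FDR = 2.55e-05) in aged mice. The call held for *Axin2*, *Znrf3* and *Rnf43* in each of 16 alternative settings in young and 15 in aged mice.

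*Notum* (chromosome 11, 120653788 to 120661175, minus strand) was close to the limit of detection, taken as 3 counts in a library. In ISC its raw counts were 0, 0 and 6 (young) and 16, 2 and 1 (aged). The young AE libraries gave 14, 3 and 411 counts, the 411 from the deepest library, and the aged AE libraries 5, 17 and 12. On the CPM scale these were 0, 0 and 0.337 in young ISC, 0.449, 0.108 and 0.0444 in aged ISC, 1.15, 0.248 and 4.92 in young AE and 0.476, 1.52 and 1.31 in aged AE. The ranges overlapped in young and just separated in aged mice. For AE relative to ISC the log2FC was 4.36 ± 1.27 (edgeR FDR = 0.0143) in young mice and 2.11 ± 0.74 (edgeR FDR = 0.0262) in aged mice. In young mice the call was lost without any 1 of Y1, Y2 or Y3 of ISC or without Y3 of AE, with log2FC from 2.42 to 9.19 over all libraries left out in turn. In aged mice it was lost without O3 or O5 of ISC or without O3 or O5 of AE, with log2FC from 1.68 to 3.69. The aged call was also lost with all 4 groups in 1 fit (2.18, edgeR FDR = 0.107) and without TMM (1.32, edgeR FDR = 0.124). In young mice *Notum* fell below the stricter filter on low counts and was not tested there. It was called in 11 of 15 and 9 of 15 alternative settings. Exons of the antisense gene *Notumos* cover 29.4% of the exon bases of *Notum*, and the strand setting of the counting is not given in the sources used here, so its reads cannot be told apart from antisense reads. The same limit holds for 17.8% of the exon bases of *Fzd5*, 14.6% of *Ctnnb1* (opposite *Ulk4*) and 3.8% of *Axin2*.

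Of the receptors, *Fzd7* was called and the others were not. *Fzd7* (chromosome 1, 59482424 to 59486955, plus strand), a Frizzled receptor of the stem cell compartment, was at 51.4, 48.9 and 40.8 CPM in young ISC and at 47.9, 51.6 and 53.7 CPM in aged ISC. It was at 20.5, 23.1 and 10.9 CPM in young AE and at 17.8, 19.0 and 27.3 CPM in aged AE, below every ISC library. Its log2FC was -1.39 ± 0.28 (edgeR FDR = 0.00329) in young and -1.34 ± 0.18 (edgeR FDR = 1.03e-04) in aged mice, and the call held in every alternative run.

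*Fzd5* (chromosome 1, 64730558 to 64737751, minus strand), the other Frizzled among the members, was called neither lower nor higher. It was at 191, 162 and 188 CPM in young ISC, 173, 167 and 244 CPM in aged ISC, 149, 206 and 178 CPM in young AE and 183, 204 and 181 CPM in aged AE. The cell types overlapped at both ages. Its log2FC was -0.02 (95% confidence interval -0.42 to 0.37) in young and -0.11 (-0.52 to 0.30) in aged mice. The interval in young mice lies wholly above the one of *Fzd7*, which was -2.02 to -0.75; the difference between the receptors itself was not tested.

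The co-receptors *Lrp5* (chromosome 19, 3584828 to 3686564, minus strand) and *Lrp6* (chromosome 6, 134446476 to 134566965, minus strand) were not called in these edgeR fits, but both were called in other settings. *Lrp5* was at 148, 125 and 129 CPM in young ISC, 120, 104 and 132 CPM in aged ISC, 124, 133 and 134 CPM in young AE and 117, 139 and 140 CPM in aged AE, with overlap at both ages. Its log2FC was -0.04 (95% confidence interval -0.37 to 0.29) in young and 0.07 (-0.28 to 0.43) in aged mice. *Lrp6* was at 91.6, 87.3 and 91.7 CPM in young ISC, 73.5, 77.1 and 99.5 CPM in aged ISC, 108, 107 and 117 CPM in young AE and 96.4, 121 and 114 CPM in aged AE. Young AE lay above young ISC in all libraries, while the aged groups overlapped. Its log2FC was 0.30 ± 0.13 (edgeR FDR = 0.0911) in young and 0.33 ± 0.17 (edgeR FDR = 0.112) in aged mice, and was not called. It was called higher in aged mice without O5 of ISC (0.47, edgeR FDR = 0.0237), with all 4 groups in 1 fit (0.40, edgeR FDR = 0.0295) and with DESeq2 (0.42, FDR = 0.0495), and in young mice with the stricter filter on low counts (0.32, edgeR FDR = 0.0494). Without TMM scaling, *Fzd5* (-0.72 and -0.90), *Lrp5* (-0.75 and -0.72) and *Lrp6* (-0.41 and -0.46) were called lower in AE in young and in aged mice (edgeR FDR from 0.00158 to 0.0331).

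*Ctnnb1* (chromosome 9, 120929216 to 120960507, plus strand), which encodes β-catenin, was the most abundant member. It was at 877, 779 and 848 CPM in young ISC and 667, 754 and 788 CPM in aged ISC, and at 888, 1082 and 1123 CPM in young AE and 945, 1107 and 1090 CPM in aged AE. Every AE library was higher than every ISC library of its age, but the log2 fold changes of 0.30 ± 0.20 (edgeR FDR = 0.220) in young and 0.44 ± 0.20 (edgeR FDR = 0.0761) in aged mice were not called. With the library code as a replicate block, which pairs ISC and AE of a code, *Ctnnb1* was called higher in AE of aged mice (log2 fold change 0.44, edgeR FDR = 0.0282). It was also called in aged mice by DESeq2, with RLE scaling and with all 4 groups in 1 fit, and its sign turned without TMM scaling, to -0.40 in young and -0.35 in aged mice.

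*Tcf7l2* (chromosome 19, 55741810 to 55933654, plus strand) encodes the TCF factor through which β-catenin acts in this epithelium. It was at 36.5, 23.6 and 17.9 CPM in young ISC, 33.0, 23.9 and 30.1 CPM in aged ISC, 82.5, 52.0 and 38.2 CPM in young AE and 63.5, 49.7 and 67.1 CPM in aged AE. The groups did not overlap, although the highest young ISC library (36.5) came close to the lowest young AE library (38.2). Its log2FC was 1.14 ± 0.35 (edgeR FDR = 0.0240) in young and 0.97 ± 0.18 (edgeR FDR = 6.47e-04) in aged mice. In young mice the call was lost without Y2 or Y3 of ISC (log2FC 1.08 and 0.93) or without Y1 of AE (0.76). Without TMM scaling the values were 0.44 (edgeR FDR = 0.323) and 0.19 (edgeR FDR = 0.385), which is 1.00 and 1.10 above the median of all genes, against 0.99 and 1.10 with TMM. Of the 5 goblet cell markers, 4 were called higher in AE at each age, and of the 6 enteroendocrine markers 5. In aged mice 1 marker of each of these lists was called lower. The part of goblet and enteroendocrine cells in the values of *Tcf7l2* and *Notum* was not tested.

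**Figure D2:**
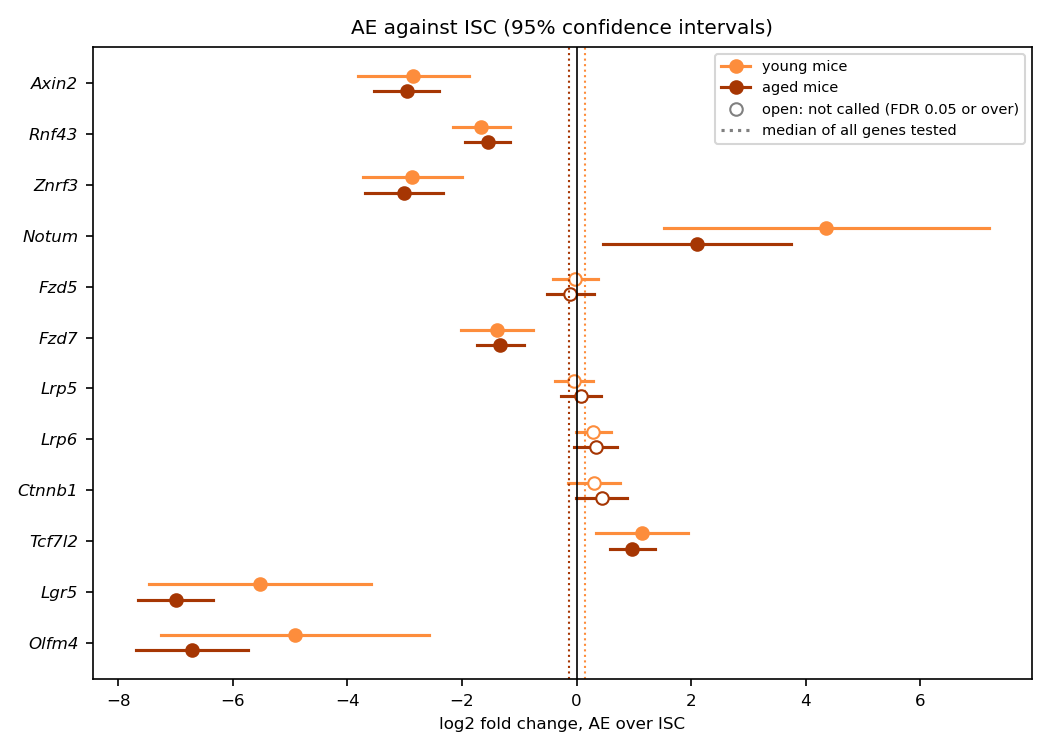
Log2FC of AE relative to ISC for the 10 genes and the stem cell markers *Lgr5* and *Olfm4* in young and aged mice, with 95% confidence intervals from edgeR. Filled points were called at an FDR under 0.05, open points were not, and dotted lines are the medians of all genes tested (0.15 in young and -0.13 in aged mice); *Axin2* and *Znrf3* lie near -3 and *Lgr5* and *Olfm4* further to the left.

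The 4 members that were lower in AE were still detected there, and their level was set beside the 6 stem cell markers as a share of ISC. Relative to the mean ISC level of the same age, the 3 young AE libraries held 14.4%, 20.7% and 6.85% of *Axin2*, and the 3 aged AE libraries 9.10%, 13.2% and 18.1%. For *Znrf3* the shares were 9.41%, 22.9% and 9.91% in young and 8.02%, 18.02% and 12.7% in aged mice. *Rnf43* stayed at 25.4%, 34.9% and 34.5% in young and 34.8%, 38.1% and 34.7% in aged mice, and *Fzd7* at 23.1% to 53.4% over the 6 libraries. In the same libraries *Lgr5* was at 2.07%, 4.78% and 0.557% in young and 0.479%, 1.13% and 0.824% in aged mice. *Olfm4*, a secreted protein made by crypt base stem cells, was at 1.99%, 7.47% and 0.511% in young and 0.568%, 1.41% and 1.02% in aged mice. *Ascl2* was at 0.164% to 8.54%, *Smoc2* at 1.20% to 12.4% and *Slc12a2* at 1.498% to 9.42% over the 6 libraries. *Rnf43* and *Fzd7* were at a larger share than each of the 6 markers in 6 of 6 libraries. *Axin2* and *Znrf3* were so for 5 of the markers, but in O1 the sixth, *Igfbp4* (3.56% to 10.2%), was at 10.2% and thus above both. In young AE, the library with the largest shares of *Lgr5*, *Olfm4* and the proliferation gene *Mki67* (30.4%), Y2, was also the one with the largest shares of *Axin2*, *Znrf3*, *Rnf43* and *Fzd7*. In aged AE, O3 held the most *Lgr5*, *Olfm4*, *Znrf3* and *Rnf43*, and O5 the most *Mki67*, *Axin2* and *Fzd7*. The 6 markers were picked as stem cell genes and *Lgr5* set the ISC gate, so their small shares in AE follow in part from that choice. The part of stem cells left in AE in these levels was not tested.

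**Figure D3:**
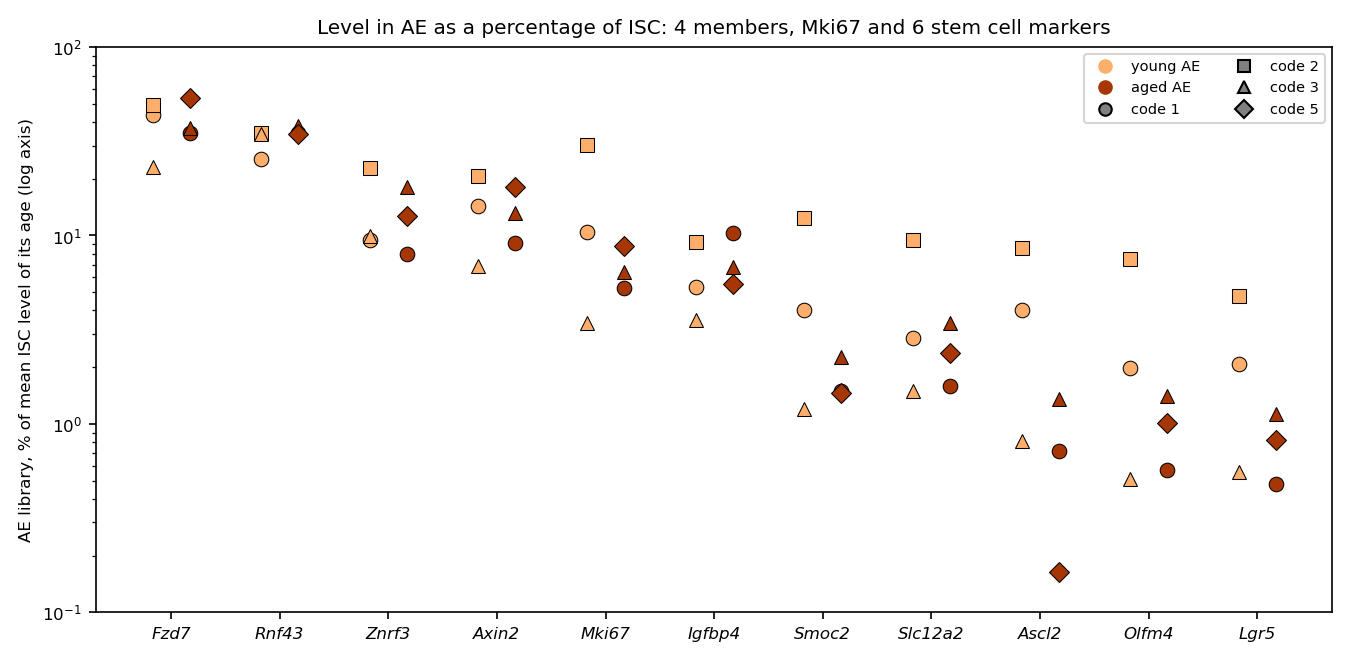
Level of 4 members, *Mki67* and the 6 stem cell markers in each AE library as a percentage of the mean ISC level of its age (log axis), with symbols for the library code. *Rnf43* and *Fzd7* lie between 23.1% and 53.4%, *Axin2* and *Znrf3* between 6.85% and 22.9%, *Lgr5* at 4.78% or less, and *Igfbp4* reaches 10.2% in O1.

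For the order of the members among themselves, levels were taken per length, as RPKM over the merged exons of each gene in GENCODE M21. From the highest to the lowest mean RPKM, ISC of both ages had 1 order: *Ctnnb1*, *Axin2*, *Fzd5*, *Rnf43*, *Lrp5*, *Fzd7*, *Lrp6*, *Znrf3*, *Tcf7l2* and *Notum*. In young ISC the means were 161 ± 9.68 for *Ctnnb1*, 46.5 ± 11.5 for *Axin2*, 26.1 ± 2.27 for *Fzd5*, 20.1 ± 4.93 for *Rnf43* and 13.8 ± 1.29 for *Lrp5* (SD, n = 3). *Fzd5* and *Rnf43* overlapped between libraries there, and so did *Znrf3* (3.75 ± 0.89) and *Tcf7l2* (2.96 ± 1.09). In AE *Axin2* left its second place. In young AE it was at 6.50 ± 3.22 RPKM, within the spread of *Tcf7l2* (6.56 ± 2.58) and *Rnf43* (6.35 ± 1.08), while *Ctnnb1* was at 199 ± 24.1 and *Fzd5* at 25.7 ± 4.12. *Znrf3* and *Notum* were the lowest members in AE, at 0.53 ± 0.29 and 0.87 ± 1.03 RPKM in young and 0.50 ± 0.20 and 0.46 ± 0.23 RPKM in aged AE.

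The promoters of called members in either direction are shown for the letters at their start. The RefSeq table of GRCm38.p6 has 9 promoters for 6 of the 10 members, and Znrf3, Lrp5, Lrp6 and Notum had no entry there. Each spans 250 bases before to 50 after a start and was searched on both strands for 4 forms of the TCF/LEF motif, the form CTTTGAA, the form CTTTGAT, the form CTTTGTA and the form CTTTGTT, which share their first 5 letters. A match was found in 2 of the 9 promoters, that of *Fzd7* and the second of *Tcf7l2*, and in 16.9% of 32841 promoters of all genes. The 250 bases before the start are shown for *Axin2*, *Rnf43* (the first of 2 promoters) and *Fzd7*, which were lower in AE. They are also shown for the second promoter of *Tcf7l2*, which was higher. Starts are those of RefSeq, and the windows shown for *Rnf43* and *Tcf7l2* lie inside the gene bounds given above. Each reads 5′ to 3′ on the plus strand, with a motif match in capitals.
Axin2, chr11:108920099-108920348: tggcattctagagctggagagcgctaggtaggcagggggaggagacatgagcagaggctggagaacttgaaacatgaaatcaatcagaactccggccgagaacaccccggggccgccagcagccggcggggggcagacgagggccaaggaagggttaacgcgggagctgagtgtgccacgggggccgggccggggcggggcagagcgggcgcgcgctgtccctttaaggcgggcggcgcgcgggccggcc
Rnf43, chr11:87662837-87663086: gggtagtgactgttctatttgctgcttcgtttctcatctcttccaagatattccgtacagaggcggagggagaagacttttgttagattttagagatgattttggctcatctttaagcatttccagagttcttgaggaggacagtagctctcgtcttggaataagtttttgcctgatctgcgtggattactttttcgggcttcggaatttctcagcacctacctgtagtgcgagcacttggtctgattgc
Fzd7, chr1:59481897-59482146: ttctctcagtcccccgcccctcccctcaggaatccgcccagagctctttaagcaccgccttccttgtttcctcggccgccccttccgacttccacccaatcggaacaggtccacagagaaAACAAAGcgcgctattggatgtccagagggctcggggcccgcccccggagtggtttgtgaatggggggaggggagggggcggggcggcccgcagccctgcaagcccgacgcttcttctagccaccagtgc
Tcf7l2, chr19:55895071-55895320: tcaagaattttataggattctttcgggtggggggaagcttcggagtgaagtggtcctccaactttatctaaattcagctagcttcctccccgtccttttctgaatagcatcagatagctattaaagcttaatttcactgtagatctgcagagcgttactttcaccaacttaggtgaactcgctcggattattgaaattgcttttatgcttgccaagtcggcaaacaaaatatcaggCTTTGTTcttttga
In *Fzd7* the capitals are the motif CTTTGTT read on the other strand, beginning at position -130 from the start, and in *Tcf7l2* they are CTTTGTT at position -14. *Axin2* and *Fzd7* had GC contents of 70.0% and 66.7% over the whole 300 bases, above the median of 52.7%. The first promoter of *Rnf43* (46.7%) and the second of *Tcf7l2* (42.0%) lay below it. The first promoter of *Tcf7l2*, at the start of its gene bounds and not shown, had 70.0% and no match. A match is a string of letters and not a measured binding site, and these windows say nothing of enhancers elsewhere.

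Between ages, none of the 10 genes was called in ISC or in AE by edgeR, and none had an unadjusted p under 0.05. Over all genes tested, 0% were called in ISC and 0% in AE, while 5.04% and 4.79% had an unadjusted p under 0.05. DESeq2, run as an alternative, called 58 genes in ISC and 18 in AE, and 0 members in either. The paper, with DESeq2, reported *Ccr2* higher and *Rps4l* lower with age in both cell types. It found both again by quantitative PCR in another cohort. The edgeR fits here called neither, so a change with age can be missed by them. With age, the median log2FC was 0.12 for the 10 genes in ISC and 0.06 in AE, against 0.01 and -0.04 over all genes tested. In ISC no member separated the ages, where 8.86% of all genes did, and in AE 1 of 10 did, where 10.9% of all genes did.

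For *Axin2*, *Rnf43* and *Znrf3* in ISC, the difference between the age means was smaller than the SD within either age. *Axin2* averaged 256 ± 63.6 CPM (young ISC) and 289 ± 44.6 CPM (aged ISC; SD, n = 3), a log2FC of aged relative to young of 0.18 with a 95% confidence interval from -0.27 to 0.63. *Rnf43* was at 132 ± 32.4 and 148 ± 29.4 CPM, a log2FC of 0.18 (-0.29 to 0.65), and *Znrf3* at 29.6 ± 7.02 and 30.8 ± 7.76 CPM, a log2FC of 0.07 (-0.44 to 0.59). The receptors had narrower intervals, with a log2FC of 0.13 (-0.19 to 0.45) for *Fzd7*, 0.12 (-0.28 to 0.52) for *Fzd5*, -0.16 (-0.49 to 0.17) for *Lrp5* and -0.11 (-0.45 to 0.24) for *Lrp6*. *Ctnnb1* had a log2 fold change of -0.17 (-0.51 to 0.17) and *Tcf7l2* of 0.17 (-0.40 to 0.74). *Notum*, at 0 to 16 counts per ISC library, gave 1.01 with an interval from -1.86 to 3.88.

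In AE, *Rnf43* came nearest to a difference by age. Its young AE libraries, at 33.5, 46.1 and 45.4 CPM, stood against aged ones at 51.7, 56.5 and 51.5 CPM, so that all 3 aged libraries lay above all 3 young libraries. Its log2FC was 0.37 ± 0.17 with an unadjusted p of 0.0635 and an FDR of 0.844 in edgeR's test. *Axin2* averaged 35.8 ± 17.8 CPM (young AE) and 38.8 ± 13.0 CPM (aged AE), a log2FC of 0.15 with an interval from -0.82 to 1.11, which was wider than in ISC. The interval of *Znrf3* was as wide, at 0.02 (-1.04 to 1.07), and *Fzd7* had 0.27 (-0.41 to 0.95). *Fzd5* (0.11), *Lrp5* (0.03), *Lrp6* (0.01), *Ctnnb1* (0.04) and *Tcf7l2* (0.09) had log2 fold changes near 0, with upper limits of at most 0.69. *Notum* was at -1.23 (-3.35 to 0.88), and without Y3 of AE at 0.67.

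The change with age was compared between cell types in 1 fit over all 12 libraries. None of the 10 members was called, where 0.00575% of all genes were, and none had an unadjusted p under 0.05, where 3.88% of all genes did. The difference of the log2 fold changes (AE minus ISC) was 0.18 (-0.42 to 0.79) for *Rnf43*, -0.04 (-1.13 to 1.04) for *Axin2*, -0.06 (-1.15 to 1.03) for *Znrf3* and 0.20 (-0.31 to 0.71) for *Ctnnb1*. Over all genes, 1 was called in this fit and 19 with the library code as a replicate block, with 0 members in both.

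**Figure D4:**
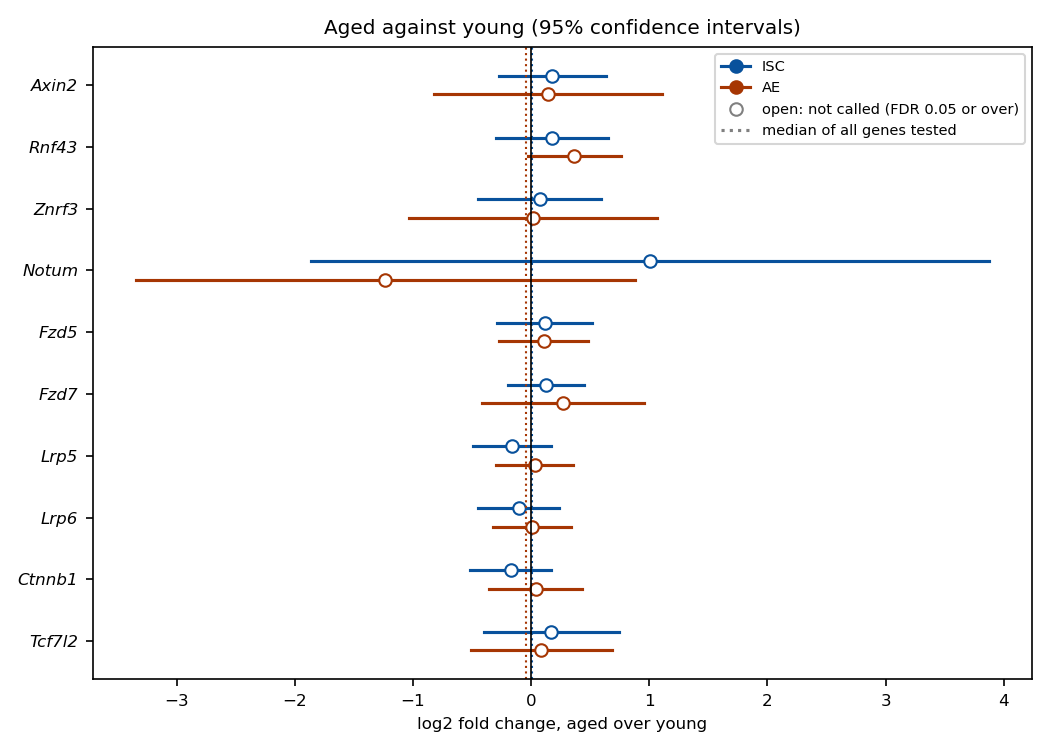
Log2 fold changes of aged over young for the 10 genes in ISC and in AE, with 95% confidence intervals from edgeR. All points are open, as 0 were called, all intervals include 0, and the interval of *Notum* in ISC is the widest (-1.86 to 3.88).

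The members fell into sets by the shape of their levels over the 12 libraries. Likeness was measured as the root mean square difference of gene-centred log2(CPM + 1), so that 0 means the same shape. Among pairs of members it was smallest for *Lrp6* with *Ctnnb1* (0.10), *Fzd5* with *Lrp5* (0.16) and, among those lower in AE, *Axin2* with *Znrf3* (0.33) and *Fzd7* with *Rnf43* (0.37). Of 10543 other genes with a mean of at least 5 CPM, those most like *Axin2* were *Sox9* (0.23), *Emp2* (0.24) and *Car12* (0.25), against a median of 1.54 over all of them. Sox9 is a transcription factor of the crypt base. Those most like *Znrf3* were *Wdr76*, *Taf4b* and *Arid5b* (0.18 to 0.22), those most like *Rnf43* were *Aasdh*, *Odf2* and *Nfib* (0.17 to 0.19), and those most like *Fzd7* were *Miga1*, *Mcm10* and *Esrp1* (0.17 to 0.22). Mcm10 is a DNA replication factor. *Tcf7l2* was closest to *Irf9*, *Syvn1* and *Slc25a35* (0.16 to 0.24), and *Notum* to *Bok*, *Coq4* and *Plpp5* (0.31 to 0.33). The added 1 CPM flattens the shape of *Notum*, which reached no more than 4.92 CPM in any library. The members that hardly varied had the closest neighbours: *Tmtc3*, *Shc1* and *Rapgef6* for *Fzd5*, *Pik3r4*, *Stk4* and *Ppp2r5a* for *Lrp5*, *Bmpr1a*, *Ski* and *Lats1* for *Lrp6*, and *Smurf2*, *Rnf10* and *Ap3m1* for *Ctnnb1*, all between 0.06 and 0.10. Their medians over all candidate genes were low too, at 0.53 to 0.56, since the measure is not scaled to how much a gene varies. The 12 libraries share 4 groups, so that most of a shape is the difference between cell types.

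The other genes of the pathway were taken from a list of 94, of which 66 had enough counts to be tested between AE and ISC at each age. In young mice 18 were higher in AE, 29 were lower and 19 were not called, and in aged mice 16 were higher, 31 were lower and 19 were not called. Over all genes tested, 28.9% were higher and 26.7% lower in young mice, and 30.6% and 34.2% in aged mice, the background for the lists that follow. The lists share some genes, such as *Lgr5*, and a shared gene is counted in each of its lists. Without TMM scaling the split of the wider genes was 6 higher to 37 lower (young) and 7 higher to 42 lower (aged). Their median log2 fold change was -0.33 in young and -0.74 in aged mice, or -0.41 and -0.65 with genes absent from a whole group set at their bound of 3 counts per library. Of 16 crypt target genes, among them the gate's own gene *Lgr5*, 13 were lower in AE and 1 was higher in young mice, and 14 were lower and 1 was higher in aged mice. The 1 higher gene was *Prox1* at both ages, named after its values were seen, which also marks enteroendocrine cells. The transcription factor gene *Sox4* had log2 fold changes of -2.49 (edgeR FDR = 8.76e-04) in young and -3.26 (edgeR FDR = 1.34e-06) in aged mice, and the receptor gene *Ephb2*, which guides cell position along the crypt, had -2.41 (edgeR FDR = 0.00717) and -3.12 (edgeR FDR = 2.08e-07). The cyclin gene *Ccnd1*, which drives entry into the cell cycle, was called in aged mice (-3.70, edgeR FDR = 1.60e-06) and had -2.38 ± 0.96 (edgeR FDR = 0.0767) in young mice, where Y2 of AE was at 80.1 CPM and Y3 of AE at 3.79 CPM. Without Y2 of AE it was called in young mice too (-3.64, edgeR FDR = 0.0406), as it was without Y3 of AE (-1.88, edgeR FDR = 0.0101). It was called lower in young mice also with DESeq2 (FDR = 0.0466), the stricter filter (edgeR FDR = 0.0460), all 4 groups in 1 fit (0.0291), the replicate block (0.0366), library totals without TMM (0.0361) and edgeR's default settings (0.0438).

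Among ligands and secretion factors, *Wls*, the carrier that brings Wnt proteins to the cell surface, was lower in AE (-2.60, edgeR FDR = 8.24e-04 in young, and -3.18, edgeR FDR = 2.10e-07 in aged mice). *Wnt6* was higher in AE at both ages (2.89, edgeR FDR = 0.00179, and 2.38, edgeR FDR = 2.83e-04) at no more than 6.75 CPM. *Wnt3*, the ligand made by Paneth cells, was called higher in AE in young mice (1.22, edgeR FDR = 0.0346) and was at 0.18 (edgeR FDR = 0.584) in aged mice. It was at 2.30 to 4.63 CPM in ISC and at 3.60 to 11.05 CPM in AE, and the young call was lost without Y1, Y2 or Y3 of ISC or Y1 of AE (log2FC from 0.67 to 1.37), with upper-quartile scaling (1.11) and without TMM (0.52). Of 12 other Wnt and R-spondin receptors tested in young mice 8 were lower in AE and 2 higher, and of 13 in aged mice 8 were lower and 1 higher. *Lgr4*, an R-spondin receptor that counters Rnf43 and Znrf3, was lower in AE by 0.79 in young (edgeR FDR = 0.00715) and by 0.76 in aged mice (edgeR FDR = 0.00109) on the log2 scale, far less than *Lgr5* (-5.53 and -7.00), the gene of the ISC gate. *Ryk* was not called (-0.25 and -0.22), except as lower without TMM (-0.96 and -1.004). Of the 4 R-spondins, *Rspo1*, *Rspo2* and *Rspo3* had 0 counts in all libraries. *Rspo4* counts were 0, 0 and 0 (young ISC) and 4, 8 and 17 (young AE), at least 2.25-fold higher with the floor of 3 counts in each ISC library, and 7, 0 and 0 in aged ISC against 11, 15 and 3 in aged AE. Its call was lost without Y1, Y2 or Y3 of ISC or Y1 of AE in young mice and without O3 of AE in aged mice (edgeR FDR up to 0.0622 and 0.0626), and in young mice also without TMM (edgeR FDR = 0.0554).

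Of 7 secreted and membrane inhibitors tested in young mice, 2 were higher in AE and 2 lower, and of 6 in aged mice again 2 were higher and 2 lower. *Sfrp5*, which binds Wnt ligands, was lower in AE (-3.53, edgeR FDR = 0.00433 in young, and -4.31, edgeR FDR = 2.12e-06 in aged mice), and so was *Apcdd1* (-1.46, edgeR FDR = 0.0220, and -0.99, edgeR FDR = 0.0370), while *Kremen1* was not called (-0.15 and -0.23). The call of *Apcdd1* was lost without Y1 of ISC in young mice (-1.02) and without O1 or O5 of ISC or O1 or O3 of AE in aged mice (from -0.99 to -0.70). In aged mice it was also lost with DESeq2 (FDR = 0.0696), RLE scaling (edgeR FDR = 0.0525) and all 4 groups in 1 fit (edgeR FDR = 0.0696). The transducers and the destruction complex had 5 of 15 genes higher and 5 lower at each age, close to the shares over all genes tested (28.9% and 26.7% in young, 30.6% and 34.2% in aged mice). *Dvl1*, which relays the signal from Frizzled, was higher in AE (0.92, edgeR FDR = 0.00932, and 1.04, edgeR FDR = 3.12e-04), and *Csnk1a1* (0.28 and 0.26), a kinase of β-catenin, and *Tnks2* (-0.22 and -0.31) were not called. Among nuclear partners the co-repressors *Tle3* (0.84, edgeR FDR = 0.00370, and 1.00, edgeR FDR = 5.99e-04) and *Tle4* (0.58, edgeR FDR = 0.0207, and 0.88, edgeR FDR = 3.48e-04) were higher in AE, as *Tcf7l2* was, and *Bcl9l* was not called (-0.40 and -0.12). In young mice the call of *Tle4* was lost without Y2 or Y3 of ISC or Y2 of AE (log2FC from 0.31 to 0.61). Without TMM scaling the calls were lost at both ages for *Dvl1* (0.21, edgeR FDR = 0.445, and 0.26, edgeR FDR = 0.212), *Tle3* (0.13, edgeR FDR = 0.550, and 0.21, edgeR FDR = 0.312) and *Tle4* (-0.12, edgeR FDR = 0.601, and 0.096, edgeR FDR = 0.565). In that setting *Kremen1* (-0.86 and -1.02), *Tnks2* (-0.92 and -1.10) and *Bcl9l* (-1.11 and -0.91) were called lower at both ages, and *Csnk1a1* in aged mice (-0.53). *Csnk1a1* was called higher in aged mice with DESeq2 (0.35), and *Tnks2* lower there with upper-quartile scaling (-0.40).

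**Figure D5:**
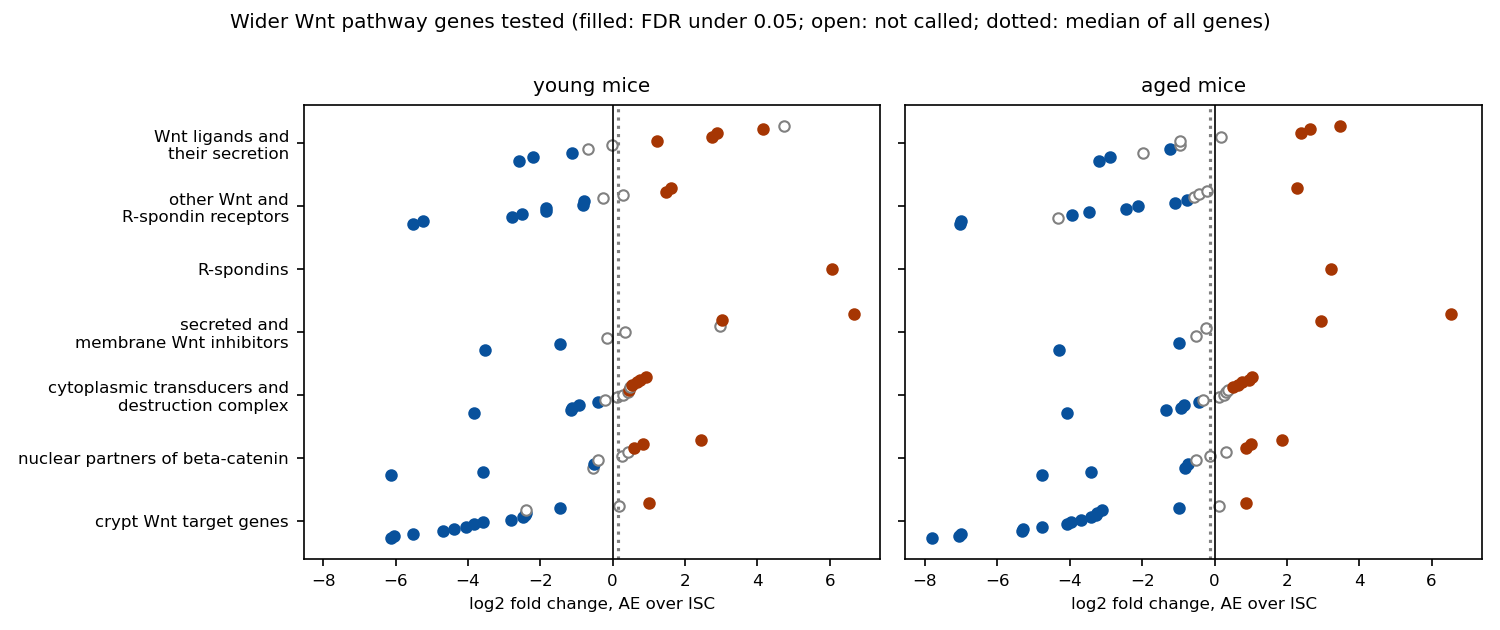
Log2FC of AE relative to ISC for the 66 tested genes of the wider pathway in young and in aged mice, by list. A gene on several lists is drawn in each. Filled points were called by edgeR (brown higher, blue lower), open points were not, and the dotted line is the median of all genes. Of the 16 crypt targets, 13 in young and 14 in aged mice are filled on the lower side, while the transducers hold 5 filled points on either side.

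By age, 0 of 63 wider pathway genes were called in ISC, 0 of 65 in AE and 0 of 69 in the difference between them, with edgeR. At an unadjusted p under 0.05 there were 5 in ISC (*Wnt3*, *Fzd4*, *Fzd8*, *Sfrp5* and *Sp5*), 7 in AE (*Wnt5a*, *Fzd3*, *Fzd8*, *Rspo4*, *Kremen2*, *Apcdd1* and *Dvl2*) and 1 in the difference (*Fzd4*), named after their values were seen. Over all genes tested, 5.04% had such a p in ISC, 4.79% in AE and 3.88% in the difference. The lowest FDR among them was 0.881 in ISC and 0.844 in AE.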

How the data were processed

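RNA of 12 libraries was sequenced as poly(A) RNA with a directional kit. The authors trimmed reads with Trim Galore 0.4.4, mapped them to GRCm38 with HISAT2 2.1.0 and deposited raw read counts per gene, made in SeqMonk from uniquely mapped reads. The annotation release and strand setting of the counting are not given in the sources used here. A second table, of the authors' own comparisons, was not used.

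The 10 members and all gene lists were chosen with earlier results of these data known. For each comparison, genes whose counts summed to 10 or more in its libraries were tested with edgeR 4.0.16 (robust quasi-likelihood test, TMM) in R 4.3.3, with Benjamini-Hochberg adjustment over all genes tested and an FDR under 0.05. The steps were tested on simulated data. Levels are CPM on TMM-scaled library sizes, and RPKM over merged GENCODE exons. Beside the members, the 3 most abundant genes of each wider list, by mean CPM without regard to length, are named. So are any called by age, and the 3 genes nearest in pattern to each member. Library totals ran from 11893817 to 110794420, and 3 counts equal 0.0359 to 0.327 CPM, limits that cover counting error only. Replicates differed by far more than sampling noise (chi-square per degree of freedom of at least 31.2).

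Library codes are shared by ISC and AE of an age. The sequenced mice listed in the paper match the codes in number, but whether a code is 1 mouse is not stated. The main fits between cell types, and that of the difference, did not use the codes as pairs. Deviations from the group means correlated at 0.234 to 0.494 in 6 of 6 same-code pairs, against -0.503 to 0.224 in 12 other pairs, over 10560 genes. Taking out the group means ties the pairs of an age together, so the negative values are in part built in. O3 of ISC had 0.234 with O3 of AE and 0.224 with O1 of AE. The codes were taken as pairs in the fit with a replicate block. The other alternatives were DESeq2 1.42.0, RLE scaling, 2 other filters on low counts, all 4 groups in 1 fit, the deepest library thinned to 14373053 counts and each library left out in turn. Library totals without TMM, upper-quartile scaling and edgeR's default settings were added after the data were seen.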

Additional observations from a re-analysis of the deposited data

How the results depend on the processing

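Between AE and ISC, the calls of *Axin2*, *Rnf43*, *Znrf3* and *Fzd7* held in all 16 alternatives in young and all 15 in aged mice. *Tcf7l2* was called in 12 of 16 and 14 of 15, and *Notum* in 11 of 15 and 9 of 15. On library totals without TMM the log2FC turned sign in young mice for *Lrp6* (-0.41), *Ctnnb1* (-0.40), *Csnk1a1* (-0.43) and *Tle4* (-0.12), and in aged mice for *Lrp5* (-0.72), *Lrp6* (-0.46), *Ctnnb1* (-0.35), *Wnt3* (-0.60) and *Csnk1a1* (-0.53). *Fzd5* turned to 0.0026 in young mice with the stricter filter, and *Lrp5* to -0.019 in aged mice with upper-quartile scaling. With libraries left out in turn, *Fzd5* ranged from -0.23 to 0.0604 and *Lrp5* from -0.15 to 0.0378 in young mice, and *Fzd5* from -0.20 to 0.074, *Lrp5* from -0.0115 to 0.16 and *Bcl9l* from -0.21 to 0.0461 in aged mice.

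By age, 0 members were called in any alternative, with a lowest edgeR or DESeq2 FDR of 0.757 in ISC, 0.334 in AE and 0.847 in the difference. Over all genes, 0 were called in ISC by edgeR, against 58 with DESeq2, 1 with no filter and 3 with all 4 groups in 1 fit, and 0 to 1 with libraries left out. In AE, 0 were called, against 18 with DESeq2, 2 with all 4 groups, 1 with the deepest library thinned, and 0 to 1 with libraries left out. In the difference, 1 was called, against 43 with DESeq2, 19 with the library code as a replicate block, 0 without TMM, and 0 to 3 with libraries left out. The replicate block also added *Ctnnb1* in aged mice (0.44) and *Ccnd1* in young mice (-3.13) to the calls between cell types, and turned *Fzd5* (0.0126) and *Axin2* (0.0258) in the difference. Between cell types it changed no other call among the members and the 3 most abundant genes of each wider list. It changed no call of a member in the difference. Other genes named here were not followed under the replicate block.

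Age effects that lay near 0 changed sign. In AE this held for *Znrf3* with DESeq2 (-0.024), all 4 groups (-0.0020), thinning (-0.17) and edgeR's default settings (-0.032), and for *Lrp6* with all 4 groups (-0.0080) and upper-quartile scaling (-0.0070). Without TMM it held for *Fzd5* (-0.023), *Lrp5* (-0.10), *Lrp6* (-0.12), *Ctnnb1* (-0.091), *Tcf7l2* (-0.0535), *Axin2* (-0.0114) and *Znrf3* (-0.12) in AE, and for *Fzd7* (-0.034) and *Lrp6* (-0.0504) in the difference. *Fzd5* in the difference was 0.0256 with DESeq2 and 0.0255 with RLE scaling. With libraries left out, the ISC age effect ran from -0.072 to 0.21 for *Fzd5*, -0.0361 to 0.49 for *Tcf7l2* and -0.11 to 0.28 for *Znrf3*. In AE it ran from -0.0046 to 0.24 for *Fzd5*, -0.0066 to 0.50 for *Fzd7*, -0.0165 to 0.11 for *Lrp5*, -0.0666 to 0.10 for *Lrp6*, -0.0586 to 0.11 for *Ctnnb1*, -0.14 to 0.43 for *Tcf7l2*, -0.19 to 0.56 for *Axin2*, -0.33 to 0.50 for *Znrf3* and -1.60 to 0.67 for *Notum*. The difference ran from -0.22 to 0.18 for *Fzd5*, -0.18 to 0.33 for *Fzd7*, -0.0365 to 0.25 for *Lrp6*, -0.42 to 0.16 for *Tcf7l2*, -0.42 to 0.34 for *Axin2*, -0.0462 to 0.33 for *Rnf43* and -0.48 to 0.37 for *Znrf3*. On plain totals, 29 of 40 group means of the members moved by more than 1 SD. *Notum* rested on 0 to 16 counts per ISC library. The causes were not tested.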
